A study of Mus musculus with 21 samples.

Results

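TGFb1 within solvent was compared by setting 3 RNA-seq libraries labelled TGFb1 + DMSO against 3 labelled DMSO, 6 of the 21 libraries of the series, chosen by their treatment label alone. All were made from total RNA of mouse lung fibroblasts sorted for Ly6C and Sca-1, cell-surface proteins of which the second is encoded by Ly6a. DMSO is the solvent in which small molecules are dissolved, and both groups carry it, so that the cytokine TGFb1 is the labelled difference between them. The other groups of the series carry TGFb1 without solvent, CHIR, or TGFb1 with CHIR, IL1b or TNF. All 21 libraries entered the fit, for the filter on low counts, the scaling and the estimate of spread. Of the other groups, only TGFb1 without solvent has its values given here. Its levels are set beside the main ones, and it takes the place of TGFb1 + DMSO in an alternative fit. The labels give neither dose, time, mouse strain nor age, and do not say if replicates came from separate cultures or animals. The p-values therefore measure the spread between libraries of the same group, estimated over the whole series, which may be technical.

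TGFb1 is a secreted cytokine that binds a pair of receptor kinases, which phosphorylate SMAD2 and SMAD3. These join SMAD4 in the nucleus and act with other transcription factors, AP-1 among them, while MAP kinases, small GTPases and PI3 kinase carry further branches of the signal. In the lung it is best known for turning fibroblasts into contractile, matrix-producing myofibroblasts. The matrix genes are the classic readout. The account below follows the other families: transcription factors, receptors, channels, transporters, metabolic enzymes and sugar-chain enzymes.

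The 6 libraries held 23546115 to 29276382 counts. Over log2 CPM (CPM being the counts scaled to a common library size with TMM) Pearson's r was 0.989 to 0.990 within a group and 0.924 to 0.931 between groups, as a description. The fibroblast markers summed to 48825 to 49319 CPM in DMSO and 78450 to 80818 CPM in TGFb1 + DMSO. Of the 9, Col1a1, Col1a2, Col3a1 and Fn1 rose, Pdgfrb did not pass, and Dcn (from 2013 to 206 CPM), Pdgfra (from 1485 to 444 CPM), Lum (from 9.24 to 0.549 CPM) and Thy1 (from 65.7 to 54.1 CPM) fell. With TGFb1 without DMSO in place of TGFb1 + DMSO, Thy1 had a log2 fold change of 0.29. The sort proteins summed to 185 to 198 CPM and 79.2 to 85.2 CPM in the same order. Of 12 immune cell markers, 6, among them Ptprc, Adgre1, Cd3e, Marco and Nkg7, had 0 counts in all 6 libraries, and the sum was 3.16 to 4.0 CPM in DMSO and 3.27 to 4.61 CPM in TGFb1 + DMSO. Epithelial markers summed to 8.68 to 11.8 CPM and 2.25 to 3.78 CPM. Hopx was the main one in DMSO, and Sftpa1, Nkx2-1 and Scgb1a1 were at 0 counts. Endothelial markers summed to 11.6 to 12.9 CPM and 8.66 to 10.4 CPM, led by Tek in DMSO. They split: Tek (from 6.71 to 0.774 CPM) and Vwf (from 1.18 to 0.591 CPM) fell. Kdr (from 1.6 to 4.19 CPM), Pecam1 (from 0.0606 to 0.658 CPM) and Cdh5 (from 0.0336 to 0.264 CPM) rose, and Egfl7 and Emcn did not pass. Mesothelial markers, mostly Wt1, stood at 13.3 to 16.7 CPM and 22.1 to 26.7 CPM. The mural markers stood at 1163 to 1258 CPM and 1613 to 1704 CPM. The most abundant of them, Pdgfrb, a gene that fibroblasts share, did not pass. Actg2 (from 139 to 391 CPM), Cnn1 (from 46.6 to 142 CPM) and Cspg4 (from 7.48 to 99.5 CPM) rose, and Notch3 (from 59.7 to 40 CPM) fell. Rgs5 and Myh11 were rare, at 1.09 to 0.454 CPM and 0.846 to 0.29 CPM. The part of these shifts in the results below was not tested. In bulk RNA, fewer cells of a type and less RNA per cell cannot be told apart.

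A number ± another, given for a gene without a unit, is the log2 ratio of TGFb1 + DMSO to DMSO (the log2 fold change) and its SE, from edgeR's quasi-likelihood fit with n = 3 libraries per group, and "rose" and "fell" mean a Benjamini-Hochberg adjusted p under 0.05 over all 16197 genes tested. TGFb1 changed most of the transcriptome: 10037 genes passed, or 62% of those tested, with 4973 higher (30.7%) and 5064 lower (31.3%). The larger changes leaned downward, since past 2-fold the higher genes numbered 1307 (8.07%) and the lower genes 2224 (13.7%). At 4-fold the counts were 515 higher and 1077 lower, and at 16-fold they were 163 and 317. The median over all genes tested was -0.02. In 10485 genes (64.7%) the groups did not overlap, meaning that every library of 1 group lay above every library of the other, so that this too is common here. Given this background, a list in which about 62% of the members pass shows nothing particular, and each list below is described by its counts and its median beside these values.

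**Figure D1:**
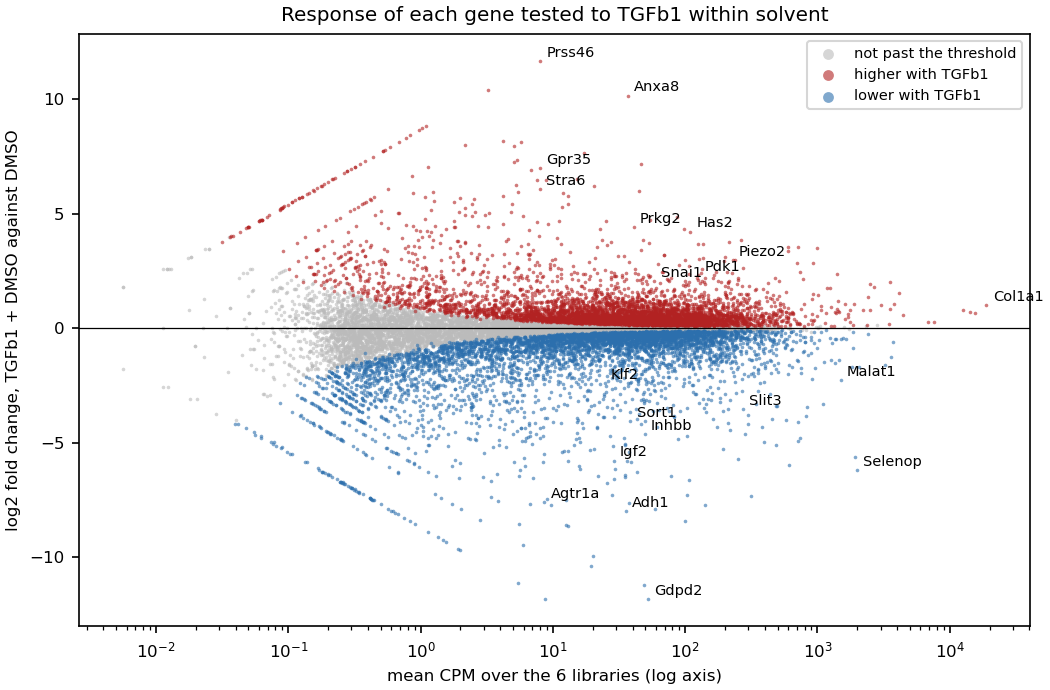
Each point is a gene tested, with its mean level over the 6 libraries in CPM on a log axis and its log2 fold change, TGFb1 + DMSO against DMSO. Red genes rose (4973), blue genes fell (5064) and grey genes did not pass; the diagonal streaks at the left are genes with 0 counts in most or all libraries of a group.

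Counts by direction varied with the kind of gene. Protein-coding genes were balanced, with 4530 higher and 4407 lower of 13043. Long noncoding RNAs were not: 133 rose and 361 fell of 1211 tested (median -0.47). Pseudogenes went the other way, with 283 higher (18.9%) and 124 lower (8.27%) of 1499 (median 0.16), both shares below those of all genes. Reads shared with their parent genes may be split between them. By level, genes with a mean under 1 CPM had 339 higher (10.3%) and 712 lower (21.7%) of 3288. Genes of 100 to 1000 CPM had 1018 higher (47.5%) and 795 lower (37.1%) of 2143. In summed CPM, 10 genes carried 22.4% of all gains. These were Col1a1, Fn1, Col3a1, Col1a2, Fbn1, Col5a2, Col5a1, Scd2, Postn and Fbln2, of which all but Scd2, a stearoyl-CoA desaturase, encode matrix proteins. The largest 10 losses carried 12.9% of all losses. They were Selenop, C3, Aebp1, Thbs1, Ahnak, Malat1, Egr1, Dcn, Nedd4 and Svep1, which span a selenium carrier, complement, matrix proteins, a noncoding RNA, a zinc finger factor and a ubiquitin ligase.

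At the upper extreme stood genes that were near absence in solvent. Anxa8, an annexin that binds membranes in the presence of calcium (ENSMUSG00000021950, chromosome 14, 34085981 to 34100571, GRCm38), was at 0, 0.168 and 0 CPM in DMSO and 67.8, 79.7 and 74.3 CPM in TGFb1 + DMSO. The change was 10.16 ± 0.24 (edgeR adjusted p = 7.38e-25). Without DMSO replicate 2, the only DMSO library with a count, Anxa8 was at least 1333-fold higher when 3 counts over the group are set as the floor. Prss46, a serine protease, had 0 counts in DMSO and 16 CPM with TGFb1, at least 447-fold higher against the same floor. Among the other 18 genes of the highest 20 by the naming rule were Moxd1, Ctsw, Acsbg1, Abcb1a, Pbp2, Gpr35, Adgra1, Lrrc15, Cxcr6, Lgr5, Col8a2, Stra6, C1qtnf3, Htr2b, Klhl30, Pdgfb and Pgf. Several are receptors or ligands. Lgr5, a receptor for R-spondins, went from 0.123 to 10.4 CPM, Htr2b, a serotonin receptor, from 0.176 to 10.7 CPM, and Cxcr6, the receptor for CXCL16, from 0.158 to 15.1 CPM. Pdgfb, which encodes a platelet-derived growth factor chain, was at 0.272, 0.705 and 0.365 CPM in DMSO and 26.9, 22.5 and 27.2 CPM in TGFb1 + DMSO. It rose 55.7-fold. That the groups do not overlap was a condition for naming the highest and lowest 20. Pgf, placental growth factor, rose by 5.80 ± 0.29. Lrrc15, a leucine-rich repeat membrane protein used as a marker of TGFb-activated fibroblasts, was at 0.476, 0.235 and 0.243 CPM in DMSO and 34, 27.1 and 28.8 CPM in TGFb1 + DMSO (6.52 ± 0.19).

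At the lower extreme stood secreted proteins and detoxifying enzymes. Fstl4, a follistatin-like protein, went from 17.6 CPM to 0 counts, at least 483-fold lower against the floor. Gdpd2, a glycerophosphodiester phosphodiesterase, held 8829 counts over the DMSO libraries and 2 over the TGFb1 + DMSO libraries, a ratio of 4339-fold (95% counting interval 1201 to 35837). Inmt, which methylates indoleamines, held 3385 and 3 counts, 1109-fold (95% counting interval 379 to 5381) lower. The remaining 17 of the lowest 20 were Clca3a1, Ces1d, Galnt15, Cxcl5, Fmo2, Scg2, Chrm2, Agt, Adh1, Sfrp2, Sorbs2, Scara5, Col6a5, Abca8a, Agtr1a, Dock10 and Fam180a. A ligand and a receptor of the renin-angiotensin system were among them. Agt, the angiotensinogen precursor, was at 225, 194 and 181 CPM in DMSO and 0.504, 0.375 and 0.841 CPM in TGFb1 + DMSO. Its receptor gene Agtr1a was at 15.9, 16.8 and 18.8 CPM in DMSO and 0.116, 0.136 and 0 CPM in TGFb1 + DMSO. They fell 348-fold and 191-fold, and Agtr1a was 302-fold (95% counting interval 103 to 1467) lower without TGFb1 + DMSO replicate 2, on 3 TGFb1 + DMSO counts. Sfrp2, a secreted Wnt antagonist, fell by 7.90 ± 0.17, and Scara5, a ferritin receptor of mesenchymal cells, by 7.71 ± 0.12, from 279 to 1.32 CPM.

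**Figure D2:**
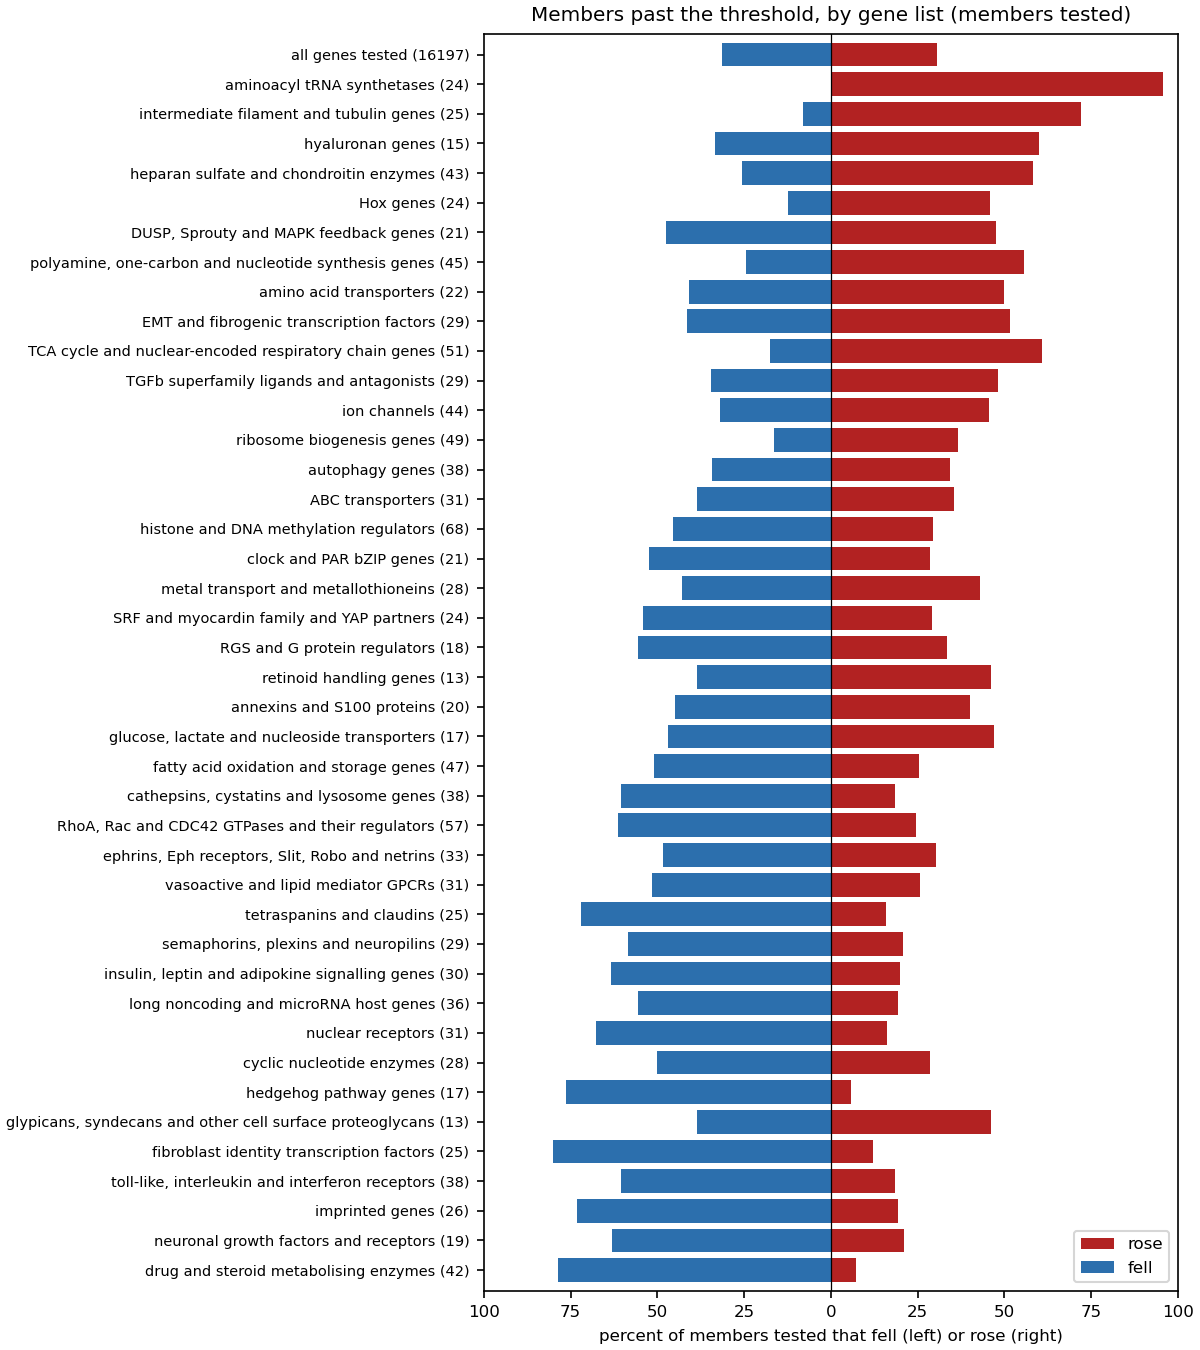
Bars show, for each of 41 gene lists, the percentage of members tested that rose (right, red) or fell (left, blue), ordered by median log2 fold change, with all genes tested in the top row (30.7% and 31.3%). The aminoacyl tRNA synthetases (23 of 24 rose) and the drug and steroid metabolising enzymes (33 of 42 fell) stand at the ends.

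Transcription factors that define lung and body-wall fibroblasts were mostly lower. On the list of fibroblast identity factors, 3 rose and 20 fell, with 2 short of the threshold, of 25 tested (median -0.67), and 5 others lay below the filter on low counts. Osr2, a zinc finger factor of limb and palate mesenchyme (ENSMUSG00000022330, chromosome 15, 35296098 to 35303305), was at 57.9, 50 and 48.9 CPM in DMSO and 1.63, 2.42 and 1.98 CPM in TGFb1 + DMSO. The drop was 25.8-fold (-4.69 ± 0.14, edgeR adjusted p = 1.19e-30). Nfia, a nuclear factor I protein, went from 396 to 77.6 CPM, Ebf1, an early B cell factor also expressed in stroma, from 159 to 54.4 CPM, and Klf2, a Kruppel-like factor, from 41.5 to 7.97 CPM. Gata6 and Foxd1 fell by about the same amount (-1.10 ± 0.064 and -1.04 ± 0.12). Meox1, a homeobox gene linked to fibroblast activation, rose from a low level of 0.591 CPM to 2.45 CPM (2.08 ± 0.23). Foxf2 (-0.10 ± 0.095) and Hoxb5 (-0.17 ± 0.15) did not pass.

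The factors of epithelial-mesenchymal transition and fibrogenesis split. Of 29 tested, 15 rose and 12 fell, with 2 short of the threshold (median 0.20). Snai1, a zinc finger repressor and direct TGFb target, was at 22.9, 23.6 and 21.6 CPM in DMSO and 93.5, 94.2 and 94.9 CPM in TGFb1 + DMSO. Its relative Snai2 was at 79.2, 84.5 and 82.2 CPM in DMSO and 46.5, 41.5 and 48.8 CPM in TGFb1 + DMSO. The 2 thus moved apart with no overlap in either, Snai1 rising by 2.05 ± 0.071 and Snai2 falling by 0.85 ± 0.059. Runx1, a Runt-domain factor, rose 4.64-fold (2.21 ± 0.052), to a mean of 267 CPM, and Runx2 rose by 1.06 ± 0.056. Scx, the tendon factor scleraxis, rose from 0.234 to 1.65 CPM. Creb3l2 and Six4 rose by 1.23 ± 0.045 and 1.17 ± 0.085. Against these, the high-mobility genes Hmga1 (-1.58 ± 0.14) and Hmga2 (-1.51 ± 0.11) and the bHLH factors Twist2 (-1.44 ± 0.089) and Twist1 (-0.61 ± 0.07) fell. Zeb1 rose and Zeb2 fell, by 0.42 ± 0.043 and 0.37 ± 0.048.

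Of the 24 genes of the SRF and myocardin family and the YAP partners, which read cell tension and actin state, 7 rose and 13 fell, with 4 short of the threshold (median -0.20). None was at least 2-fold higher. Srf itself was at 92.6, 90.8 and 86.8 CPM in DMSO and 53.9, 57.5 and 55.9 CPM in TGFb1 + DMSO, with no overlap. Vgll4, which competes with YAP for TEAD factors (-1.62 ± 0.072), Fjx1 (-1.60 ± 0.071), Ptpn14 (-1.03 ± 0.051) and Amotl2 (-1.01 ± 0.049) fell, while Gadd45a and Amotl1 rose by 0.68 ± 0.066 and 0.61 ± 0.041. Wwtr1, which encodes TAZ, was at 0.05 ± 0.04 and did not pass.

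Of 36 Hox genes, the positional factors that fibroblasts keep from the embryo, 24 passed the filter. Of these 11 rose and 3 fell, with 10 short of the threshold (median 0.43). The risers lay mostly in the C and B clusters and at A4 and D8. Hoxc8 was at 0.885, 0.806 and 1.01 CPM in DMSO and 5.39, 4.98 and 4.39 CPM in TGFb1 + DMSO, and Hoxb9 at 40.6, 42.1 and 40.2 CPM in DMSO and 87, 85.1 and 83.2 CPM in TGFb1 + DMSO. In neither did the groups overlap (2.45 ± 0.24 and 1.06 ± 0.053). Hoxa4 rose by 1.35 ± 0.10, Hoxd8 by 1.16 ± 0.065 and Hoxc5 by 0.96 ± 0.093. The 3 that fell were the neighbours Hoxa5, Hoxa6 and Hoxa7 (-0.43 ± 0.065, -0.81 ± 0.28 and -0.66 ± 0.14). Hoxa6 overlapped between the groups and was past the threshold neither without DMSO replicate 1 nor without TGFb1 + DMSO replicate 1 (edgeR adjusted p = 0.156 without DMSO replicate 1 and 0.0547 without TGFb1 + DMSO replicate 1).

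**Figure D3:**
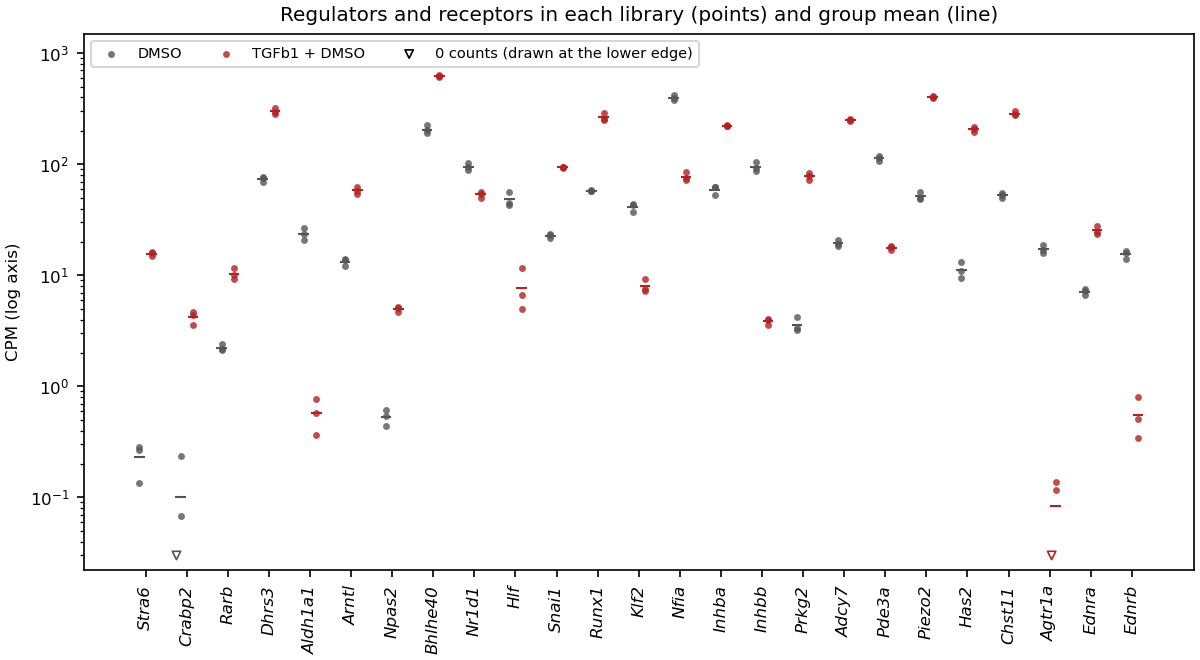
Points give the CPM of each of the 3 DMSO libraries (grey) and the 3 TGFb1 + DMSO libraries (red) for 25 regulators and receptors on a log axis, with the group mean as a line; an open triangle at the lower edge marks a library with 0 counts. In Arntl, Prkg2 and Has2 all TGFb1 + DMSO libraries lie above all DMSO libraries, and in Aldh1a1, Inhbb and Ednrb all lie below.

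The circadian clock turns on the activators CLOCK, NPAS2 and BMAL1 (encoded by Arntl), which drive their own repressors PER, CRY and the REV-ERB receptors (Nr1d1 and Nr1d2). Of 21 clock and PAR bZIP genes, 6 rose and 11 fell, with 4 short of the threshold (median -0.17). Of the activators, Arntl (ENSMUSG00000055116, chromosome 7, 113207465 to 113314126) was at 13.7, 12.2 and 13.9 CPM in DMSO and 54.1, 57.9 and 63 CPM in TGFb1 + DMSO. Npas2 was at 0.544, 0.436 and 0.608 CPM in DMSO and 5.2, 4.67 and 5.09 CPM in TGFb1 + DMSO. Both rose without overlap, 4.4-fold and 9.4-fold, and Clock was at 0.13 ± 0.06, which did not pass with all libraries and did with edgeR adjusted p = 0.0421 without DMSO replicate 2 and 0.02 without DMSO replicate 3. Bhlhe40 and Bhlhe41, repressors that compete for the same E-boxes, rose by 1.60 ± 0.043 and 1.39 ± 0.072. On the side of output and feedback, Hlf, a PAR bZIP factor, was at 56.8, 45.3 and 43.3 CPM in DMSO and 11.6, 6.65 and 4.98 CPM in TGFb1 + DMSO and fell 6.3-fold. Per1 fell by 1.26 ± 0.093 and Nr1d1 by 0.83 ± 0.065, while Per2 was at 0.03 ± 0.085 (not passed). In the TGFb1 libraries without solvent, Arntl stood at 57 ± 2.94 CPM and Hlf at 5.71 ± 1.83 CPM (mean ± SD, n = 3).

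Nuclear receptors, the ligand-gated transcription factors for steroids, thyroid hormone, retinoids and lipids, were mostly lower. On that list 5 rose and 21 fell, with 5 short of the threshold, of 31 tested (median -0.53), and 13 members (41.9%) were at least 2-fold lower against 13.7% of all genes. Nr3c1, the glucocorticoid receptor, was at 263, 291 and 271 CPM in DMSO and 103, 103 and 101 CPM in TGFb1 + DMSO. The groups did not overlap, and it fell 2.69-fold. Thra and Thrb, the thyroid hormone receptors, fell by 1.45 ± 0.062 and 2.84 ± 0.25, Pgr, the progesterone receptor, by 3.78 ± 0.35, and Ppara, which governs fatty acid oxidation, by 3.42 ± 0.55. The log2 fold change of Thrb was -3.48 without TGFb1 + DMSO replicate 2, and that of Ppara -4.38 without TGFb1 + DMSO replicate 3. Nr4a1, an immediate early orphan receptor, went from 776 to 105 CPM. Pparg, the adipogenic receptor, was at 18, 19.3 and 18.3 CPM in DMSO and 15.4, 19 and 17.6 CPM in TGFb1 + DMSO. These overlapped and the change did not pass (-0.10 ± 0.11). Of the 5 receptors that rose, Rarb alone was past 2-fold.

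Rarb belongs to the retinoid genes, which handle vitamin A and its acid. Retinol enters cells through STRA6, is turned into retinal and by ALDH1A enzymes into retinoic acid, is carried by CRABP2 to the RAR receptors, and is broken down by CYP26 enzymes. Of 16 such genes 13 passed the filter and 6 rose and 5 fell, with 2 short of the threshold (median -0.26). Genes of uptake (Stra6), a carrier (Crabp2), a receptor (Rarb) and the return to retinol (Dhrs3) rose. Stra6 (ENSMUSG00000032327, chromosome 9, 58063788 to 58153996) was at 0.136, 0.269 and 0.284 CPM in DMSO and 16.3, 15.1 and 15.8 CPM in TGFb1 + DMSO, a rise of 67.8-fold. Crabp2 was at 0.068, 0.235 and 0 CPM in DMSO and 3.57, 4.67 and 4.35 CPM in TGFb1 + DMSO, and Rarb at 2.14, 2.38 and 2.19 CPM in DMSO and 9.35, 11.6 and 10.2 CPM in TGFb1 + DMSO. Dhrs3, which returns retinal to retinol, was at 75.8, 69.1 and 77.4 CPM in DMSO and 285, 296 and 319.6 CPM in TGFb1 + DMSO. In each of these 4 genes the groups did not overlap (6.08 ± 0.20, 5.23 ± 0.38, 2.21 ± 0.17 and 2.02 ± 0.053), and Crabp2 was 114-fold (95% counting interval 31.4 to 946) higher without DMSO replicate 2, on 2 DMSO counts. The other carrier gene Crabp1 did not pass (-0.26 ± 0.25), and with TGFb1 without DMSO in place of TGFb1 + DMSO it passed at 0.89. The breakdown enzymes differed. Cyp26b1 fell by 0.64 ± 0.19, and was at -0.09 and not past the threshold with TGFb1 without DMSO in place of TGFb1 + DMSO. Cyp26a1 was rare, with 3 counts over the DMSO libraries and 16 over the TGFb1 + DMSO libraries, 5.43-fold (95% counting interval 1.55 to 29.1) higher. It was not past the threshold in 5 of the 6 fits that left out a library, with edgeR adjusted p = 0.0559 without TGFb1 + DMSO replicate 2 to 0.157 without DMSO replicate 2. The 3 synthesis genes tested were lower: Aldh1a1 was at 20.9, 26.7 and 23.7 CPM in DMSO and 0.776, 0.579 and 0.366 CPM in TGFb1 + DMSO (41.3-fold lower), Aldh1a3 fell by 0.94 ± 0.058 and Rdh10, which makes retinal, by 1.09 ± 0.071. Rarres2, the gene of the adipokine chemerin, fell from 1.6 to 0.318 CPM, and its receptor gene Cmklr1 rose from 2.45 to 24.6 CPM (3.32 ± 0.14). Without solvent, TGFb1 left Stra6 at 26.4 ± 2.22 CPM and Rarb at 11 ± 0.986 CPM.

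The retinoic acid element, a direct repeat of GTTCA with 6 bases between the copies, read on either strand, was found in 5 of the 10822 promoters searched (250 bases before to 50 after the first listed start, RefSeq, GRCm38.p6). They were those of Rarb, Cyp26a1, Cfap45, Dmd and Tnfsf13b. The first 4 genes rose at least 2-fold, as did 853 of all 10822 genes with a promoter searched, and Tnfsf13b fell by 0.84 ± 0.11. Of the 4, Cyp26a1 (from 0.034 to 0.195 CPM) and Cfap45 (from 0.0743 to 0.685 CPM) were rare. Cyp26a1 did not pass in 5 of the 6 fits that left out a library. The element was chosen with earlier results of these data known, and its matches are few. The number that rose therefore cannot be read as a result about the element. A link of the element to these changes was not tested. The whole Rarb window, chr14:16575427-16575726 on the minus strand, and the bases around the match in the Cyp26a1 promoter, chr19:37697746-37697821 on the plus strand, are shown 5′ to 3′ because both genes are in the retinoid group, with the match in capitals. The match begins 52 bases before the start of Rarb and 32 before that of Cyp26a1, where it is read on the other strand.
Rarb: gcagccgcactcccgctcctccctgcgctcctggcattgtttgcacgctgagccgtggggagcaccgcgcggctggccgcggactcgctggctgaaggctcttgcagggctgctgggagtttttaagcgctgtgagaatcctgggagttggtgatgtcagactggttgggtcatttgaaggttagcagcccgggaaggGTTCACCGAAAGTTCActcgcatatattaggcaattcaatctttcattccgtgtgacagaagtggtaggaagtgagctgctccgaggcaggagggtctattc
Cyp26a1: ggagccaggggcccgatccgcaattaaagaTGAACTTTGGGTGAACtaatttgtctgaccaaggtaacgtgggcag
A match is a description of the letters and not a bound site.

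Ligands and antagonists of the TGFb superfamily changed in both directions. Of 38 genes 29 passed the filter, and 14 rose and 10 fell, with 5 short of the threshold (median 0.09). Tgfb1 itself rose from 73.6 to 203 CPM (1.47 ± 0.047), with Tgfb3 (1.04 ± 0.048), Tgfb2 (0.96 ± 0.062) and Lrrc32, which anchors latent TGFb at the cell surface (1.16 ± 0.045). The activin subunits diverged. Inhba was at 53.1, 62.2 and 62.1 CPM in DMSO and 224, 223 and 221 CPM in TGFb1 + DMSO. Inhbb was at 105, 87.6 and 92.9 CPM in DMSO and 4.07, 3.58 and 3.95 CPM in TGFb1 + DMSO. With no overlap in either, Inhba rose 3.77-fold and Inhbb fell 24.7-fold. Fstl3, which binds activins, rose by 2.48 ± 0.16, and its relative Fst was at 0.09 ± 0.054 and did not pass, though it did with edgeR adjusted p = 0.0159 without DMSO replicate 3 and 0.0251 without TGFb1 + DMSO replicate 3. Of the BMP arm, Bmp4 (-2.53 ± 0.41) and Bmp6 (-1.15 ± 0.13) and the antagonists Chrdl1 (-3.53 ± 0.26) and Nbl1 (-1.34 ± 0.061) fell. Gdf10 had 0 counts with TGFb1 and 1.22, 0.168 and 0.0811 CPM in DMSO, at least 13.5-fold lower, or at least 3.42-fold lower without DMSO replicate 1, and did not pass with DESeq2 (adjusted p = 0.133).

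Feedback regulators of MAP kinase signalling split evenly: 10 rose and 10 fell, with 1 short of the threshold, of 21 (median 0.27). Dusp1, an immediate early phosphatase, was at 473, 443 and 426 CPM in DMSO and 104, 96.9 and 83.8 CPM in TGFb1 + DMSO, and fell 4.71-fold. Spry1 and Spry2, which damp receptor tyrosine kinases, fell by 1.34 ± 0.082 and 1.55 ± 0.091, and Dusp8 rose by 1.48 ± 0.11. Dusp4 and Dusp6, targets of ERK, rose by 0.60 ± 0.083 and 0.54 ± 0.079. Among the RGS proteins and G protein regulators, 6 rose and 10 fell, with 2 short of the threshold, of 18 tested (median -0.25). Rgs2, which ends Gq signals, was at 22.4, 19.4 and 16.7 CPM in DMSO and 1.59, 1.26 and 2.05 CPM in TGFb1 + DMSO. It fell 12-fold, and Rgs17 and Rgs16 by 1.72 ± 0.07 and 1.30 ± 0.084, while Rgs3 rose by 1.43 ± 0.20.

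Receptors for vasoactive peptides, amines and lipids changed in both directions: 8 rose and 16 fell, with 7 short of the threshold, of 31 tested (median -0.35), with 7 of the risers and 10 of the fallers past 2-fold. The endothelin receptors parted. Ednra was at 7.52, 6.61 and 7.22 CPM in DMSO and 28.1, 23.6 and 24.8 CPM in TGFb1 + DMSO. Ednrb was at 13.9, 16 and 16.5 CPM in DMSO and 0.504, 0.341 and 0.805 CPM in TGFb1 + DMSO. Ednra rose 3.58-fold and Ednrb fell 28-fold, without overlap. Among the adrenergic receptors, Adra2a rose from 2.21 to 17.5 CPM (2.98 ± 0.12) and Adra1b fell from 12.8 to 0.483 CPM (-4.71 ± 0.25). Gpr35 rose from 0.121 to 15.7 CPM, F2rl1, the protease-activated receptor PAR2, from 0.303 to 3.69 CPM, and Lpar4 by 1.14 ± 0.13. Calcrl, which binds adrenomedullin and CGRP, fell by 1.83 ± 0.082, Lpar2 by 2.05 ± 0.17 and S1pr1 by 1.01 ± 0.08. The thrombin receptor F2r, at 329.9 and 348 CPM, did not pass (0.07 ± 0.04).

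Downstream of these receptors, cyclic nucleotide enzymes changed in both directions: 8 rose and 14 fell, with 6 short of the threshold, of 28 tested (median -0.56). Prkg2, the membrane-anchored cGMP-dependent kinase (ENSMUSG00000029334, chromosome 5, 98929773 to 99037351), was at 4.22, 3.22 and 3.36 CPM in DMSO and 72.4, 79 and 83.1 CPM in TGFb1 + DMSO. Adcy7, an adenylyl cyclase, was at 21, 18.2 and 19.3 CPM in DMSO and 257, 248 and 249 CPM in TGFb1 + DMSO. Both rose without overlap, 21.6-fold and 12.9-fold, and Adcy1 rose by 2.07 ± 0.054 from 52 to 218 CPM. The phosphodiesterases Pde3a and Pde4b, which break cAMP down, were lower. Pde3a was at 108, 120.0 and 115 CPM in DMSO and 17.9, 18.3 and 17 CPM in TGFb1 + DMSO (6.45-fold lower), and Pde4b fell by 2.20 ± 0.088. Pde7b fell by 4.86 ± 0.65 and Prkar2b, a regulatory subunit of protein kinase A, by 3.26 ± 0.078. Without TGFb1 + DMSO replicate 2, Pde7b was 89.7-fold (95% counting interval 30.5 to 437) lower, on 3 TGFb1 + DMSO counts. On the cGMP side Prkg1 fell by 1.16 ± 0.079, Npr1, a natriuretic peptide receptor, by 2.02 ± 0.15 and Gucy1a2, a subunit of soluble guanylyl cyclase, by 1.31 ± 0.14. Pde3b (-0.00 ± 0.063) and Pde1a (0.01 ± 0.068) did not pass.

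Hedgehog pathway genes were mostly lower. Of 22 listed 17 passed the filter, and 1 rose and 13 fell, with 3 short of the threshold (median -0.64). The co-receptors Gas1, Boc and Cdon fell by 2.81 ± 0.11, 1.25 ± 0.071 and 0.46 ± 0.041. Gas1 was at 469, 395 and 407 CPM in DMSO and 67.5, 56.2 and 58 CPM in TGFb1 + DMSO, without overlap. Hhip, which traps the ligand, fell from 33.2 to 5.02 CPM (-2.72 ± 0.11), the receptor gene Ptch1 by 0.75 ± 0.07 and Smo by 0.43 ± 0.052. Among the GLI factors, Gli2 fell by 1.33 ± 0.094 and Gli3 by 0.47 ± 0.052, and Gli1, a rare transcript, rose from 0.212 to 1.55 CPM (2.89 ± 0.45). Gli1 was the only member that rose, at 3.49 without DMSO replicate 3.

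Neurotrophic factors and their receptors were mostly lower. Of 19 tested 4 rose and 12 fell, with 3 short of the threshold (median -1.46), and 11 (57.9%) were at least 2-fold lower. Sort1, the gene of sortilin (ENSMUSG00000068747, chromosome 3, 108284082 to 108361511), was at 73.4, 73.9 and 70.6 CPM in DMSO and 4.73, 3.61 and 4.65 CPM in TGFb1 + DMSO. Sorcs2, of the same receptor family, was at 5.44, 6.11 and 5.92 CPM in DMSO and 168, 163 and 172 CPM in TGFb1 + DMSO. Sort1 fell 16.8-fold and Sorcs2 rose 28.8-fold, with no overlap. Ret, a receptor tyrosine kinase for GDNF ligands, rose from 0.902 to 14.7 CPM (4.02 ± 0.14) and its ligand gene Artn by 1.94 ± 0.19. The co-receptors Gfra1 and Gfra2 fell by 1.62 ± 0.082 and 2.22 ± 0.11. Ptn, the heparin-binding growth factor pleiotrophin, was at 55.3, 63.2 and 53.7 CPM in DMSO and 0.31, 0.886 and 0.549 CPM in TGFb1 + DMSO and fell 96-fold. Ngfr, a neurotrophin receptor, fell by 4.67 ± 0.56.

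Axon guidance families leaned downward. Among semaphorins, plexins and neuropilins, 6 rose and 17 fell, with 6 short of the threshold, of 29 tested (median -0.44). Sema3c, Sema3d and Sema3f, secreted class 3 semaphorins, fell by 3.09 ± 0.11, 4.31 ± 0.26 and 3.12 ± 0.11. The plexin receptors parted: Plxna4 was at 41.4, 39.8 and 44.4 CPM in DMSO and 355, 354 and 375 CPM in TGFb1 + DMSO, and Plxna2 at 129, 127 and 119 CPM in DMSO and 15.5, 14.9 and 15.4 CPM in TGFb1 + DMSO. Plxna4 rose by 3.11 ± 0.057 and Plxna2 fell by 3.04 ± 0.075, and neither overlapped. Nrp1 fell and Nrp2 rose, by 1.06 ± 0.047 and 0.58 ± 0.063. Among ephrins, Eph receptors, Slit, Robo and netrins, 10 rose and 16 fell, with 7 short of the threshold, of 33 tested (median -0.35). Slit3, a ligand of the Robo receptors, was at 514, 496 and 492 CPM in DMSO and 45.7, 41.1 and 43.3 CPM in TGFb1 + DMSO, and Slit2 fell by 1.70 ± 0.041 from 989 CPM. Epha4 went from 31 to 0.974 CPM, Epha7 from 32.7 to 3.75 CPM, and Ephb1 from 473 counts over the DMSO libraries to 1, 465-fold (95% counting interval 83 to 18403) lower. Ntn4, a netrin, rose by 2.29 ± 0.14, Efna3 by 2.27 ± 0.21 and Efnb2 by 1.18 ± 0.059. Robo2 had 0 counts with TGFb1 and 0.362 CPM without (at least 9.97-fold lower).

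Of 30 genes of insulin, leptin and adipokine signalling, 6 rose and 19 fell, with 5 short of the threshold (median -0.49). Klf15 fell from 51 to 8.39 CPM, Socs3, a feedback inhibitor of cytokine receptors, from 191 to 34.1 CPM, and Irs2 and Pik3r1, which carry the insulin signal, by 1.72 ± 0.077 and 1.39 ± 0.054. Ddit4, an inhibitor of mTORC1, was at 26.4, 27.8 and 30.2 CPM in DMSO and 119, 119 and 121 CPM in TGFb1 + DMSO and rose 4.27-fold. Innate and cytokine receptors were mostly lower: 7 rose and 23 fell, with 8 short of the threshold, of 38 tested (median -0.71). Il1r1, the receptor for IL1, was at 212, 205 and 207 CPM in DMSO and 47, 42.9 and 39.8 CPM in TGFb1 + DMSO. Lifr, the receptor for LIF, was at 315, 317 and 349 CPM in DMSO and 75.3, 59.1 and 64.3 CPM in TGFb1 + DMSO. Both fell, 4.82-fold and 4.94-fold, with no overlap, as did Il6ra (-1.49 ± 0.081), Il1rap (-1.50 ± 0.079) and Cd14 (-1.53 ± 0.16). The exceptions included Il13ra1, a receptor chain for IL4 and IL13, which was at 35, 38.9 and 42.5 CPM in DMSO and 171, 161 and 149.9 CPM in TGFb1 + DMSO, and Il13ra2, a decoy for IL13, which rose by 1.58 ± 0.35 (2.56 without DMSO replicate 1). Il4ra, the partner chain, was at -0.05 ± 0.091 and did not pass.

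Of 44 ion channel genes tested, 20 rose and 14 fell, with 10 short of the threshold (median 0.08). Piezo2, a stretch-gated cation channel, was at 49.3, 49.2 and 56.4 CPM in DMSO and 398, 406 and 415 CPM in TGFb1 + DMSO. Its relative Piezo1 was at 222, 228 and 233 CPM in DMSO and 232, 224 and 246 CPM in TGFb1 + DMSO. Piezo2 rose 7.89-fold (2.98 ± 0.08, edgeR adjusted p = 1.71e-18) while Piezo1 overlapped and did not pass (0.04 ± 0.056). The calcium-activated potassium channel Kcnn4 rose from 0.0788 to 2.1 CPM and its relative of the BK type, Kcnma1, fell by 0.88 ± 0.16. Kcnj15 had 0 counts in DMSO and 2.18 CPM with TGFb1 (at least 60.9-fold higher). Of the calcium-permeable TRP channels, Trpv4 rose by 1.61 ± 0.40, Trpv2 by 1.46 ± 0.24, Trpc1 by 1.21 ± 0.096 and Trpc6 by 1.06 ± 0.17. Of the beta subunits of the sodium pump, Atp1b1 fell from 154 to 1.74 CPM and Atp1b2 by 2.53 ± 0.21, while Atp1b3 was at 156 to 167 CPM and did not pass (0.10 ± 0.044), though it did with edgeR adjusted p = 0.0435 without DMSO replicate 1 and 0.0312 without TGFb1 + DMSO replicate 3. The potassium channel subunits Kcnab1 and Kcne4 fell by 4.38 ± 0.16 and 2.98 ± 0.12.

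Transporters of small molecules were balanced in number. For amino acid transporters 11 rose and 9 fell, with 2 short of the threshold, of 22 tested (median 0.24). Slc7a3, a cationic amino acid transporter, was at 21.3, 21.2 and 20.8 CPM in DMSO and 109, 117 and 116 CPM in TGFb1 + DMSO. It rose 5.42-fold, and Slc7a11, the cystine importer, Slc7a7 and Slc7a1 rose by 1.21 ± 0.13, 1.15 ± 0.15 and 1.05 ± 0.064. For glucose, lactate and nucleoside transporters 8 rose and 8 fell, with 1 short of the threshold, of 17 tested (median -0.29). Slc16a3, which exports lactate, was at 4.01, 3.42 and 4.38 CPM in DMSO and 103, 108 and 104 CPM in TGFb1 + DMSO. Slc5a3, which imports the osmolyte myo-inositol, was at 593, 516 and 554 CPM in DMSO and 49.6, 33.7 and 36.5 CPM in TGFb1 + DMSO. Without overlap, Slc16a3 rose 26.7-fold and Slc5a3 fell 13.9-fold, and Slc2a1, the basal glucose transporter, rose by 1.13 ± 0.057. Among genes of metal transport and the metallothioneins, 12 rose and 12 fell, with 4 short of the threshold, of 28 tested (median -0.17). Slc39a14, a zinc and iron importer, rose by 1.51 ± 0.051, the metalloreductase genes Steap4 and Steap3 fell by 4.87 ± 0.33 and 1.53 ± 0.057 (Steap4 -5.53 without TGFb1 + DMSO replicate 1), and Cp, the ferroxidase ceruloplasmin, fell from 306 to 49.5 CPM. For ABC transporters 11 rose and 12 fell, with 8 short of the threshold, of 31 tested (median 0.00). The lipid transporter genes Abca8a, Abca9 and Abcd2 fell by 7.63 ± 0.22, 4.79 ± 0.12 and 2.88 ± 0.11, with Abca8a at -8.79 without TGFb1 + DMSO replicate 3. Abca1 and Abcg1, both cholesterol exporters, moved apart: Abca1 went from 329 to 122 CPM (-1.43 ± 0.049) and Abcg1 from 0.135 to 4.18 CPM (4.94 ± 0.52). Abcb1a, a drug efflux pump with a close copy Abcb1b beside it, went from 0.0607 to 10.6 CPM, and Abcb1b rose by 0.35 ± 0.076.

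The lowest median of the 41 lists was that of the drug and steroid metabolising enzymes, which oxidise and conjugate foreign and endogenous compounds. Of 50 listed 42 passed the filter, and 3 rose and 33 fell, with 6 short of the threshold (median -1.50). Of those tested, 25 (59.5%) were at least 2-fold lower, against 13.7% of all genes, and 0 were at least 2-fold higher. Adh1, an alcohol dehydrogenase (ENSMUSG00000074207, chromosome 3, 138260991 to 138290698), was at 70.8, 73.3 and 69.5 CPM in DMSO and 0.272, 0.341 and 0.219 CPM in TGFb1 + DMSO. Cyp2f2, a cytochrome P450, was at 43.9, 42.8 and 43 CPM in DMSO and 0.699, 0.545 and 0.219 CPM in TGFb1 + DMSO. They fell without overlap, 251-fold and 88.2-fold. Fmo2, a flavin monooxygenase, went from 25.8 to 0.06 CPM, the glutathione transferases Gstm1 from 153 to 10.9 CPM and Gsta4 from 21.8 to 1.24 CPM, and Cyp7b1, an oxysterol hydroxylase, from 45.4 to 3.1 CPM. Ces1d and Sult1a1 had 0 counts with TGFb1, at least 299-fold and at least 73.9-fold lower. Cyp51, a step of cholesterol synthesis, rose (0.87 ± 0.045), as did Gsto1 and Cyp20a1, by 0.23 and 0.32. The glutathione transferases and carboxylesterases are families of close copies, for which no source used here states how shared reads were handled.

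Of 51 nuclear genes of the TCA cycle and the respiratory chain, 31 rose and 9 fell, with 11 short of the threshold (median 0.19), with 2 of them at least 2-fold higher, Cox6a2 (1.53 ± 0.14) and Uqcrq (1.26 ± 0.075), and 0 at least 2-fold lower. Mitochondrially encoded genes, in summed CPM given as a percentage, stood at 0.535 to 0.567% in DMSO and 0.347 to 0.467% in TGFb1 + DMSO. CPM are scaled with TMM, so that these are not exact shares of the counts. Idh3a rose and Idh2 fell (0.79 ± 0.047 and -0.62 ± 0.048), and Ndufa4 fell by 0.93 ± 0.078. For fatty acid oxidation and storage, 12 rose and 24 fell, with 11 short of the threshold, of 47 tested (median -0.34). Ppargc1a, the coactivator PGC1a, was at 5.72, 4.94 and 6.93 CPM in DMSO and 0.0388, 0.136 and 0 CPM in TGFb1 + DMSO and fell 89.5-fold. Without TGFb1 + DMSO replicate 2 it was 308-fold (95% counting interval 55 to 12179.6) lower, on 1 TGFb1 + DMSO count. Plin4, a lipid droplet coat protein, fell from 37.6 to 3.64 CPM, and Acsl4, an acyl-CoA synthetase for arachidonic acid, rose 2.83-fold to 427 CPM.

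Biosynthetic genes differed by list. Of 45 polyamine, one-carbon and nucleotide genes, 25 rose and 11 fell, with 9 short of the threshold (median 0.26). The mitochondrial folate genes rose together, Mthfd2 from 69 to 207 CPM (1.58 ± 0.049), Mthfd1l by 1.24 ± 0.061 and Shmt2 by 1.15 ± 0.047. The cytosolic Shmt1 was at 28.7, 28.4 and 28.9 CPM in DMSO and 10.3, 9.51 and 9.22 CPM in TGFb1 + DMSO and fell 2.96-fold without overlap. Of 49 ribosome biogenesis genes, 18 rose and 8 fell, with 23 short of the threshold (median 0.06). None reached 2-fold in either direction, and Myc was at 0.10 ± 0.049, not past the threshold, which it passed with edgeR adjusted p = 0.0279 without DMSO replicate 1 and 0.0118 without TGFb1 + DMSO replicate 1.

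The aminoacyl tRNA synthetases, which load amino acids onto tRNA, had the highest share of risers among the 41 lists. Of 24 tested 23 rose and 0 fell, with 1 short of the threshold (median 0.79), against 30.7% of all genes rising, and the exception was the mitochondrial Fars2 (-0.17 ± 0.13). The sizes were modest, up to 1.18 ± 0.042 for Gars. Gars was at 253, 261 and 250.3 CPM in DMSO and 532, 588 and 609 CPM in TGFb1 + DMSO. Tars was at 321, 318 and 331 CPM in DMSO and 591, 647 and 638 CPM in TGFb1 + DMSO. Cars, Farsb and Vars rose by 1.03 ± 0.048, 0.96 ± 0.059 and 0.96 ± 0.049, each near 2-fold. ATF4 and CHOP, factors of the integrated stress response, bind an element spelled TGATGNAA here and searched on both strands. It was found in 5 of the 16 synthetase promoters searched (Aars, Gars, Iars, Tars and Yars), and in 2.43% of all promoters, as well as in 3 of 16 promoters of amino acid transporters (Slc1a4, Slc7a11 and Slc7a7). The whole Gars window (chr6:55037751-55038050, plus strand) and stretches around matches in Tars (chr15:11399636-11399703), Slc7a11 (chr3:50443642-50443709) and Slc7a7 (chr14:54418048-54418115), all 3 on the minus strand, show the shared letters in capitals. The Slc7a11 stretch holds both of its matches, and Slc7a7 has a second match outside its stretch.
Gars: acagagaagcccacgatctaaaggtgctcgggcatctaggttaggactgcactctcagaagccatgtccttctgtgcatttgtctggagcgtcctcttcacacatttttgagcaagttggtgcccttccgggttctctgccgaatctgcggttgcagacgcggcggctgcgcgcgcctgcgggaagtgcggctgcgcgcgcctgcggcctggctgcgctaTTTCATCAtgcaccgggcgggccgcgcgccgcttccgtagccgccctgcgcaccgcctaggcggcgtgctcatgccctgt
Tars: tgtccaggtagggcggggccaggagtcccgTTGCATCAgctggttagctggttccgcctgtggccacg
Slc7a11: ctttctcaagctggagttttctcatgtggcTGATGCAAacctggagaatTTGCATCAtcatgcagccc
Slc7a7: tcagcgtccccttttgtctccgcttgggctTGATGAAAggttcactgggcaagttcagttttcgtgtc
All 4 of these genes rose, but they were taken from genes reported above as higher. Among the synthetases 23 of 24 rose, while 5 of the 16 promoters searched held the element. A link of the element to the rise was not tested.

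Enzymes that build and sulfate glycosaminoglycan chains rose more often than they fell. Of 43 tested 25 rose and 11 fell, with 7 short of the threshold (median 0.45), and 12 (27.9%) were at least 2-fold higher against 8.07% of all genes. Hs6st1, which sulfates heparan at the 6 position (ENSMUSG00000045216, chromosome 1, 36068400 to 36106446), was at 38.5, 39.1 and 36.7 CPM in DMSO and 223, 231 and 238 CPM in TGFb1 + DMSO. Chst11, which sulfates chondroitin, was at 52.7, 50.1 and 55.4 CPM in DMSO and 301, 282 and 278 CPM in TGFb1 + DMSO. Both rose without overlap, 6.05-fold and 5.44-fold. The chondroitin synthase Chsy3 rose from 1.29 to 11.9 CPM, Csgalnact1 by 1.66 ± 0.052, Papss2, which makes the sulfate donor, by 1.95 ± 0.066, and Hs3st1 by 2.73 ± 0.31 (3.57 without DMSO replicate 3). Hs3st3b1 (-3.32 ± 0.42) and Chst15 (-1.62 ± 0.072) fell. The extracellular sulfatases differed, Sulf1 rising from 157 to 429.7 CPM and Sulf2 falling by 0.29 ± 0.081.

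Of 15 hyaluronan genes tested, 9 rose and 5 fell, with 1 short of the threshold (median 0.59). Has2, the main hyaluronan synthase of fibroblasts (ENSMUSG00000022367, chromosome 15, 56665627 to 56694539), was at 10.9, 9.5 and 13.2 CPM in DMSO and 218, 209 and 197 CPM in TGFb1 + DMSO. Cemip, which degrades hyaluronan, was at 395, 386 and 371 CPM in DMSO and 122, 120.1 and 116 CPM in TGFb1 + DMSO. Has2 rose 18.7-fold and Cemip fell 3.21-fold, with no overlap. Has3 fell by 2.56 ± 0.48, Tnfaip6, which links hyaluronan to heavy chains, rose by 1.63 ± 0.14, and Stab1, a scavenger receptor for hyaluronan, rose from 0.57 to 22.9 CPM. TGFb1 without solvent left Has2 at 227 ± 1.29 CPM. Of 13 cell-surface proteoglycan genes, 6 rose and 5 fell, with 2 short of the threshold (median -0.66). Cspg4, which encodes NG2, rose from 7.48 to 99.5 CPM, Gpc1 by 2.08 ± 0.05 and Sdc3 by 1.98 ± 0.045. Gpc6 fell from 354 to 48.3 CPM and Tgfbr3, the TGFb co-receptor betaglycan, from 471 to 71.5 CPM (-2.72 ± 0.063).

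Among annexins and S100 proteins, calcium-binding families, 8 rose and 9 fell, with 3 short of the threshold, of 20 tested (median -0.29). Beside Anxa8, Anxa2 and Anxa5 rose by 0.63 ± 0.043 and 0.66 ± 0.038, and S100a16 by 1.42 ± 0.076. S100a14 had 0 counts in DMSO and 0.554 CPM with TGFb1 (at least 15.5-fold higher). S100a4, also called fibroblast-specific protein, was at 179.6, 160.4 and 151 CPM in DMSO and 32.5, 27.5 and 26.3 CPM in TGFb1 + DMSO. It fell 5.69-fold without overlap.

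Lysosomal genes were mostly lower: 7 rose and 23 fell, with 8 short of the threshold, of 38 tested (median -0.34). Ctsf and Ctso, cysteine cathepsins, fell by 2.30 ± 0.082 and 2.05 ± 0.26, Hexa, a hexosaminidase, went from 587 to 207 CPM and Cst3, the inhibitor cystatin C, from 361 to 125 CPM. Ctsc, which activates serine proteases, was at 5.75, 5.81 and 7.22 CPM in DMSO and 54.5, 56.3 and 56.4 CPM in TGFb1 + DMSO. It rose 8.96-fold, and was the only member at least 2-fold higher. Autophagy genes were balanced: 13 rose and 13 fell, with 12 short of the threshold, of 38 tested (median 0.03). Atg16l2 and Gabarapl1 fell by 2.27 ± 0.11 and 1.20 ± 0.042, and Bnip3, a hypoxia-regulated mitophagy receptor, rose from 0.536 to 4.76 CPM.

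Of 68 regulators of histone and DNA methylation and acetylation, 20 rose and 31 fell, with 17 short of the threshold (median -0.13), with 5 at least 2-fold lower and 0 at least 2-fold higher. Cbx7, a Polycomb protein, was at 33.2, 32.6 and 29.1 CPM in DMSO and 4.15, 4.7 and 5.49 CPM in TGFb1 + DMSO, and Cbx6 fell from 613 to 184 CPM. Their falls were 6.61-fold and 3.33-fold. Kat6b and Hdac11 fell by 1.24 ± 0.064 and 1.42 ± 0.15. The Polycomb methyltransferases moved in opposite directions, Ezh2 rising by 0.71 ± 0.067 and Ezh1 falling by 0.94 ± 0.085, and Dnmt1 and Dnmt3a rose by 0.60 ± 0.044 and 0.58 ± 0.062.

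Among long noncoding RNAs and microRNA host genes, 7 rose and 20 fell, with 9 short of the threshold, of 36 tested (median -0.51). Malat1, a nuclear RNA, was at 2993, 2009 and 2441 CPM in DMSO and 682, 455 and 404 CPM in TGFb1 + DMSO. The groups did not overlap (-2.27 ± 0.30, edgeR adjusted p = 7.35e-06). Neat1, the scaffold of paraspeckles, fell from 74.3 to 16.5 CPM and Carmn, of the miR-143 and miR-145 locus, from 8.17 to 1.56 CPM. Whether the counting used strand is not stated in the sources at hand, so antisense RNAs such as Airn (-2.19 ± 0.23) and Kcnq1ot1 (-1.84 ± 0.37) may hold reads of their overlapping genes.

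Imprinted genes, expressed from a single parental allele and rich in growth regulators, were mostly lower: of 26 tested 5 rose and 19 fell, with 2 short of the threshold (median -1.14), and 14 (53.8%) were at least 2-fold lower. Igf2, a fetal growth factor (ENSMUSG00000048583, chromosome 7, 142650766 to 142666816), was at 63.4, 52.9 and 53.7 CPM in DMSO and 0.582, 1.74 and 0.695 CPM in TGFb1 + DMSO. Mest was at 32.7, 29.7 and 30.2 CPM in DMSO and 0.349, 0.579 and 0.476 CPM in TGFb1 + DMSO. Cdkn1c, a cyclin-dependent kinase inhibitor, was at 13.9, 12.7 and 13.9 CPM in DMSO and 0.194, 0.545 and 0.439 CPM in TGFb1 + DMSO. In all 3 genes the groups did not overlap, and the falls were 55-fold, 64.7-fold and 33.4-fold. Dio3, which inactivates thyroid hormone, fell from 11.8 to 0.236 CPM, Peg10 from 148 to 14.5 CPM and Plagl1 by 1.44 ± 0.11. H19, which shares its imprinted domain with Igf2, rose from 0.114 to 1.79 CPM (3.87 ± 0.55), opposite to Igf2. H19 was at 3.28 without DMSO replicate 1 and was 98.4-fold (95% counting interval 17.4 to 3912) higher without DMSO replicate 2, on 1 DMSO count, and Igf2 at -6.46 without TGFb1 + DMSO replicate 2. Of the Dlk1 and Meg3 domain, Dlk1 rose by 0.70 ± 0.09, Rian by 1.71 ± 0.073 and Meg3 by 0.37 ± 0.13, the last with overlap between the groups and not past the threshold with edgeR adjusted p = 0.0945 without TGFb1 + DMSO replicate 2.

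Of 57 genes of the RhoA, Rac and CDC42 GTPases and their regulators, 14 rose and 35 fell, with 8 short of the threshold (median -0.34). Rhoc was the only member at least 2-fold higher, at 107, 109.9 and 105 CPM in DMSO and 292, 299.6 and 300.4 CPM in TGFb1 + DMSO. The GTPase-activating proteins Arhgap6, Arhgap20 and Arhgap28 fell by 4.13 ± 0.22, 2.64 ± 0.081 and 1.74 ± 0.071, and Rnd3, which opposes RhoA, from 188 to 70.1 CPM. Rhoa itself rose by 0.33 ± 0.053. Intermediate filament and tubulin genes were mostly higher: 18 rose and 2 fell, with 5 short of the threshold, of 25 tested (median 0.78). Nes, which encodes nestin, was at 80.2, 81.8 and 77.6 CPM in DMSO and 255, 274 and 263 CPM in TGFb1 + DMSO, and Tubb6 at 90.8, 113 and 107 CPM in DMSO and 290.4, 293 and 302 CPM in TGFb1 + DMSO. They rose 3.31-fold and 2.85-fold, and Tubb2b, Tubb3 and Tubg1 by 1.76 ± 0.076, 1.41 ± 0.065 and 1.17 ± 0.08. Synm, a filament linker, fell from 75.1 to 11.5 CPM. Tubulin genes have near-identical copies, and in this table Gapdh, which has many pseudogenes, held 11 counts over the 6 libraries, so levels of such genes are uncertain. Of 25 tetraspanin and claudin genes tested, 4 rose and 18 fell, with 3 short of the threshold (median -0.39). Cldn1 had 0 counts with TGFb1 (at least 41.1-fold lower), and Cldn15 and Tspan5 fell from 11 to 0.54 CPM and from 64.3 to 19.3 CPM.

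Related genes were set beside each other. Of 70 pairs of relatives, 62 had both members tested. In 16 pairs 1 member rose and the other fell, in 12 both rose, in 19 both fell, and in 15 at least 1 did not pass. Opposed pairs in energy metabolism were Ldha (1.87 ± 0.045) with Ldhb (-2.52 ± 0.23), Eno1 (1.97 ± 0.074) with Eno2 (-0.72 ± 0.081) and Pdk1 (2.34 ± 0.095) with Pdk4 (-2.30 ± 0.098). Pdk1 and Pdk4 encode kinases that switch off pyruvate dehydrogenase. Pdk1 was at 37.6, 46.3 and 40.1 CPM in DMSO and 192, 227 and 211 CPM in TGFb1 + DMSO. Pdk4 was at 46.2, 44.3 and 40.5 CPM in DMSO and 8.38, 9.44 and 8.71 CPM in TGFb1 + DMSO. Foxc2 rose and Foxc1 fell (1.16 ± 0.082 and -0.72 ± 0.097), and Cry1 rose and Cry2 fell (0.35 ± 0.093 and -0.40 ± 0.08). Slit2 with Slit3, Twist1 with Twist2 and Nr1d1 with Nr1d2 were among the pairs that both fell. The pair Acss1 and Acss2 counts as opposed with Acss1 at 0.11 CPM in DMSO and 0 counts with TGFb1. Acss2 rose by 0.20 ± 0.083, and was not past the threshold in 4 of the 6 fits that left out a library (edgeR adjusted p = 0.0572 without TGFb1 + DMSO replicate 1 to 0.216 without DMSO replicate 3).

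**Figure D4:**
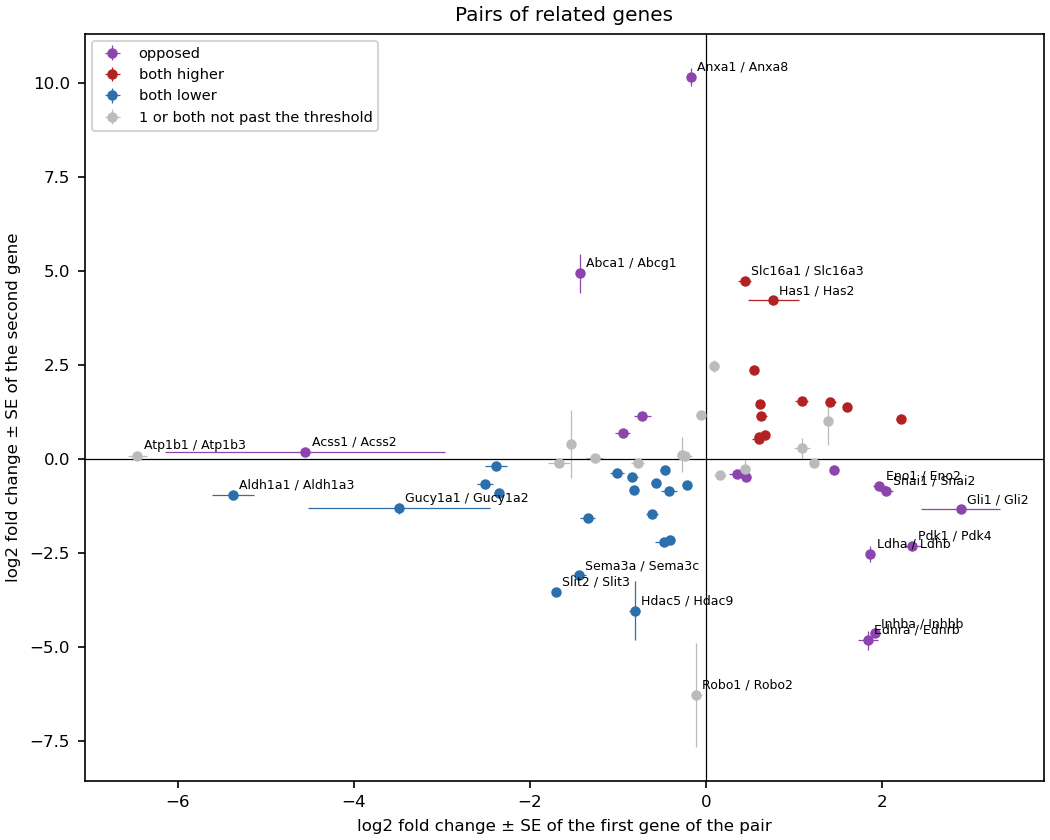
Each point is a pair of related genes, with the log2 fold change ± SE of the first on the horizontal axis and of the second on the vertical axis. The 16 opposed pairs (purple) lie in the upper left and lower right, among them Inhba with Inhbb and Ednra with Ednrb; the largest value is that of Anxa8, whose partner Anxa1 fell by 0.17 ± 0.039.

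Families defined by a shared symbol stem gave the same kind of view without a hand-made list. Among 86 stems with at least 15 genes tested, the lowest median was that of the protocadherin beta cluster, adhesion genes: for Pcdhb 0 rose and 13 fell, with 2 short of the threshold of 15 tested (median -1.31). Pcdhb4, Pcdhb18 and Pcdhb9 fell by 2.05 ± 0.77, 1.85 ± 0.26 and 1.63 ± 0.45. Pcdhb4 was not past the threshold in 3 of the 6 fits that left out a library (edgeR adjusted p = 0.0565 without TGFb1 + DMSO replicate 2 to 0.12 without TGFb1 + DMSO replicate 3), and was at -3.07 without TGFb1 + DMSO replicate 1. For Aldh, 2 rose and 11 fell, with 3 short of the threshold of 16 tested (median -0.90), and for Cyp, 6 rose and 15 fell, with 9 short of the threshold of 30 tested (median -0.72). Within Aldh the mitochondrial folate enzyme Aldh1l2 (1.43 ± 0.037) and the proline enzyme Aldh18a1 (1.32 ± 0.041) rose against the rest. For Nr, mostly nuclear receptors, 0 rose and 12 fell, with 6 short of the threshold of 18 tested (median -0.66). For Il, mostly interleukins and their receptors, 7 rose and 22 fell, with 7 short of the threshold of 36 tested (median -0.64). For Adam, 4 rose and 7 fell, with 4 short of the threshold of 15 tested (median -0.60). Adam23 fell from 266 to 20.9 CPM and Adam19 rose by 1.95 ± 0.043. The highest median was that of the TNF receptor family: for Tnfrsf, 8 rose and 5 fell, with 4 short of the threshold of 17 tested (median 0.84). Tnfrsf23 rose by 2.40 ± 0.097, and Tnfrsf19 fell from 10.4 to 1.38 CPM. For Zdhhc, palmitoyl transferases, 12 rose and 3 fell, with 4 short of the threshold of 19 tested (median 0.47). For Sec, secretory coat and translocon genes among others, 18 rose and 2 fell, with 6 short of the threshold of 26 tested (median 0.44). For Kif, mostly kinesins, 18 rose and 10 fell, with 4 short of the threshold of 32 tested (median 0.38). For Dusp, 13 rose and 4 fell, with 3 short of the threshold of 20 tested (median 0.35). For Eif, 41 rose and 12 fell, with 8 short of the threshold of 61 tested (median 0.30). The Eif stem holds translation initiation factors along with some of their kinases, binding proteins and pseudogenes. Kif26b had the largest rise of the kinesins, from 64.8 to 352 CPM. The Zfp stem, mostly zinc finger genes, was the largest, and there 29 rose and 187 fell, with 131 short of the threshold of 347 tested (median -0.37).

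Motif content of promoters was compared between 853 genes at least 2-fold higher, 1403 at least 2-fold lower and 3558 not past the threshold, as a description with no test. The pattern TGANTCA, searched for AP-1 with any middle base and so looser than a single site, was found in 10.6% of the first group. It was found in 6.13% of the second and 4.81% of the third, and in 5.14% of all 10822. The ATF4 and CHOP element was found in 4.69%, 2.85% and 2.64%. A TATA box, TATAAA, was found in 11.4%, 9.12% and 7.90%. The TEAD site CATTCC was most frequent in the second group, with 12.9%, 15.5% and 12.0%, and the palindrome bound by SMAD proteins, GTCTAGAC, was rare in all, with 5 of 853 promoters of the first group. Of the genes among the highest 20, Lrrc15 and Htr2b hold a match to the AP-1 pattern, with C as the middle base in Lrrc15 and A in Htr2b. The Lrrc15 window (chr16:30283205-30283504, minus strand) is given whole and the Htr2b promoter around its match (chr1:86112107-86112173, minus strand), with the match in capitals.
Lrrc15: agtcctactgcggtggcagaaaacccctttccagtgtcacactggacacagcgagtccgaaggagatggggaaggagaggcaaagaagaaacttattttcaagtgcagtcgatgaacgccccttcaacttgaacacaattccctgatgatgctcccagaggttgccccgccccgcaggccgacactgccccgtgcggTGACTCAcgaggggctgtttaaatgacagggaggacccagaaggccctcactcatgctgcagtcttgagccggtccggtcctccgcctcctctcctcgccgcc
Htr2b: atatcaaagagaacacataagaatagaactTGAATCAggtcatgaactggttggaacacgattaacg
Median GC content was 59.7% in the first group and 59.3% in the second.

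**Figure D5:**
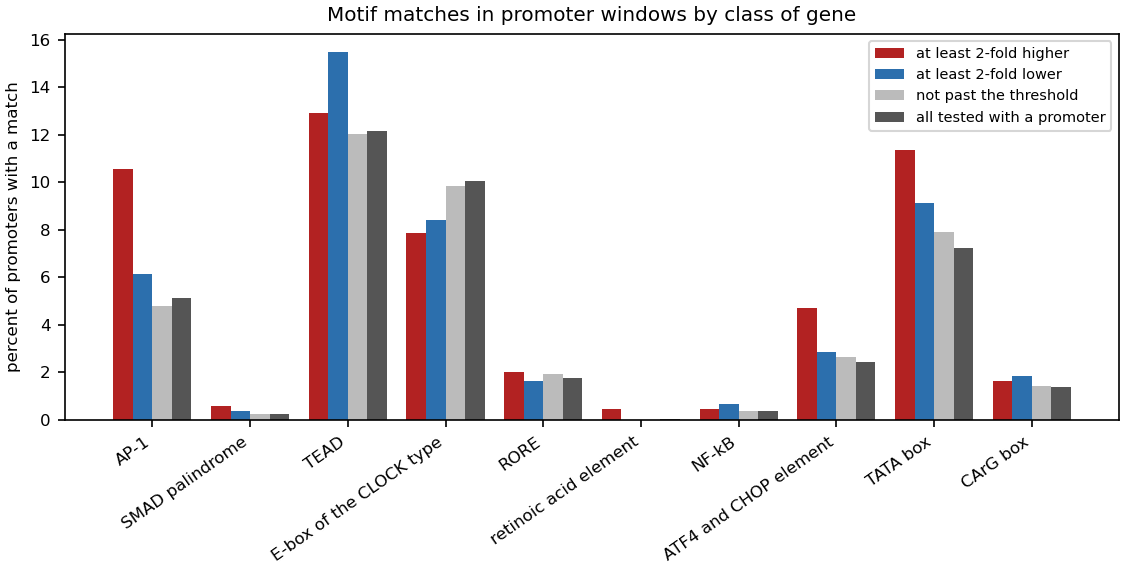
Bars give the percentage of promoter windows with at least 1 match of each motif on either strand, for genes at least 2-fold higher, at least 2-fold lower, not past the threshold, and all genes tested that have a window. The bar of the AP-1 pattern TGANTCA (any middle base) for the higher genes, at 10.6%, is above that of all genes, at 5.14%.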

How the data were processed

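RNA-seq counts per gene were deposited by the authors for 21 libraries, 3 per group, and are whole numbers with no normalization. A stranded kit was used on total RNA, per the labels' protocols. GRCm38 and GRCh38 are named in the submitters' processing notes. Aligner, counter and strand setting: not given in the sources used here. Of the 52636 gene IDs, 52489 were named with GENCODE M21, and the other 147 held 0.00736% of the counts. The 6 libraries compared held 23546115 to 29276382 counts, and intervals on counts cover counting error only.

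Counts were filtered with filterByExpr, scaled with TMM and fitted with edgeR 4.0.16 in R 4.3.3 (quasi-likelihood test, robust, a coefficient per group over all 21 libraries, common biological coefficient of variation 0.0581). P-values were adjusted by Benjamini-Hochberg over the 16197 genes tested, with a threshold of 0.05. The SE is the log2 fold change divided by the square root of the F statistic. The fit was also run on simulated counts in which few genes changed, which does not check the scaling where most genes change. A group with 0 counts was set to 3 counts over the group to give a bound. With 1 to 3 counts the ratio has a 95% exact counting interval (SciPy 1.17.1). Alternatives were DESeq2 1.42.0, limma voom 3.58.1, other scalings and filters, the 6 libraries alone, TGFb1 without DMSO, and leaving out each library. Motifs were searched on both strands of RefSeq promoter windows, which 10822 of the genes tested have.

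Genes were named by rule: the 20 highest and 20 lowest log2 fold changes among called genes whose mean reached 4 CPM and whose groups did not overlap, the 10 largest gains and losses of CPM, up to 8 members past the threshold per list, members at 0 counts in a group, up to 3 abundant members not past it, both members of each pair, and up to 3 members of the 6 highest and 6 lowest symbol families. Some genes that met the rule are not reported here. The comparison, lists, pairs and motifs were chosen with earlier results of these data known. These genes fall outside the rule and were chosen after their values were seen: Aars, Abcb1b, Adam19, Aldh18a1, Aldh1l2, Amotl1, Artn, Atp1b2, Bmp6, Calcrl, Cdon, Cfap45, Chst15, Cyp20a1, Cyp26b1, Cyp51, Cyp7b1, Dlk1, Dmd, Efna3, Gadd45a, Gfra1, Gli3, Gstm1, Gsto1, Hoxa5, Iars, Il1rap, Il6ra, Ivl, Kcnma1, Kprp, Lce1f, Lelp1, Lor, Lpar2, Lpar4, Lrrc32, Meg3, Nbl1, Npr1, Nr3c1, Nrp2, Ntn4, Pik3r1, Plagl1, Prkg1, Prr9, Rhoa, Rian, Rnd3, Slc1a4, Smo, Sprr1a, Sprr2b, Sprr2e, Tgfb2, Tgfb3, Thra, Tnfsf13b, Trpc1, Trpc6, Trpv2, Trpv4, Tubg1 and Yars.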

Additional observations from a re-analysis of the deposited data

How the results depend on the processing

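The call of most named genes held under the 15 alternatives. Of 395 genes named, 376 kept their direction and their side of the threshold in every alternative that tested them. Of the 395, 389 were tested with the filter of 1 CPM in at least 3 libraries, and 389 with only the 6 libraries. Genes past the threshold numbered 10037, and the count of higher genes ran from 4453 to 5206 and of lower genes from 4656 to 5583 over the alternatives. With 1 library left out at a time, the counts were 4736 to 4957 higher, 4656 to 4875 lower, 1277 to 1383 at least 2-fold higher, 2120 to 2258 at least 2-fold lower and 15 to 18 opposed pairs. The median log2 fold change of all genes was -0.08 with library totals only, the farthest from the -0.02 reported. With that scaling Hox genes that fell numbered 5 and autophagy genes that rose 8. Fibroblast identity factors that rose numbered 1 in 8 alternatives, and hedgehog genes that rose numbered 2 in 7 alternatives. With TGFb1 without DMSO in place of TGFb1 + DMSO, Fars2 passed the threshold at -0.37, Crabp1 was at 0.89 and Thy1 at 0.29, against the direction reported. DESeq2 gave Gdf10, at 0 counts with TGFb1, an adjusted p of 0.133. The cause of these shifts was not tested. No paired analysis was possible because the labels give no replicate number that ties a TGFb1 + DMSO library to a DMSO library. Depth limits genes under about 1 CPM, where 2237 of 3288 did not pass.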

Other observations

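Some genes of the epidermal differentiation complex on chromosome 3 changed in these fibroblasts, a block chosen after its values were seen. Between S100a9 and S100a11 lie 60 coding genes, most of them for proteins of the cornified envelope of skin, of which 21 had a count in the 6 libraries and 13 passed the filter on low counts. Of the 13, 8 rose (61.5%), 1 fell (7.69%) and 4 did not pass, against 30.7% rising and 31.3% falling among all genes tested. Most of those that rose passed the filter through the TGFb1 libraries, so that the number that rose is largely set by the filter. It cannot be read as a result about the block. Prr9, a proline-rich protein gene, had 0 counts over the DMSO libraries and 533 over the TGFb1 + DMSO libraries, at least 182-fold higher with 3 counts over the group as the floor. Its neighbour Lelp1 had 0 and 137 counts, at least 46.4-fold higher. Sprr2b held 1 count and 351 counts. Sprr2e and Lce1f had 0 counts in DMSO and 15 and 21 with TGFb1. Ivl, which encodes involucrin, had 5 and 44 counts, and Lor, which encodes loricrin, 8 and 49. Sprr1a, the only 1 of the 8 above 10 CPM, was at 10.8, 12.1 and 11.9 CPM in DMSO and 16.1, 15.4 and 15.7 CPM in TGFb1 + DMSO and rose by 0.44 ± 0.10. Kprp fell, from 146 counts to 2. Levels under 1 CPM in most of these genes limit what can be read from each.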
